A study of Mus musculus with 8 samples.

Results

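The genes that drive and restrain the cell cycle were examined in mouse liver RNA: 43 genes taken as a list by their known function, out of 35975 genes in the deposited table. They fall into 9 classes by role: 2 proliferation markers, 4 cyclins or kinases of S and M phase, 8 cyclins or kinases of G1, 8 mitosis genes, 6 genes of replication licensing, 4 genes of DNA and nucleotide synthesis, 4 E2F or pocket protein genes, 3 inhibitors of cyclin-dependent kinases (CDK), and p53 with 3 of its targets. The livers came from C57BL/6 mice that carried a catheter in the portal vein, fed by an osmotic pump under the skin, for 2 weeks. In 4 mice the pump held normal saline, the vehicle, and in 4 mice it held 4-hydroxyphenylacetic acid (4-HPAA), a phenolic acid made by gut microbes, in saline. All 8 mice therefore shared the surgery and single housing; the methods of the study give C57BL/6J mice of both sexes aged 8 to 10 weeks, and the labels give no sex or age for single mice.

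Each library was whole liver of 1 mouse, so a level is an average over every cell type in the piece, and fewer cells of a type and less RNA per cell cannot be told apart. Estimated counts totalled between 29559978 and 30673398 per library and levels are given as CPM, that is counts scaled to a common library size with TMM factors. Of the 43 genes, 37 reached 10 counts in all 8 libraries and could be tested, while Ccnb1, Ccnb2, Cdc20, Bub1, Aurkb and Plk1 had not. Markers of hepatocytes summed to between 96019 and 128152 CPM in the 8 livers, as fits the labelled tissue. Markers of B and plasma cells and of T and NK cells summed to at most 4.49 CPM in any liver. The 4 genes of the Y chromosome examined summed to between 152 and 180 CPM in all 8, so each liver was read as male. Libraries did not resemble each other equally: normal saline replicate 2 stood apart in red blood cell, Kupffer cell and cell cycle genes. Summaries of spread and of the group comparison that rest on it are given with and without it. Mean levels in saline include it unless stated.

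A cell that divides passes from G1 through DNA synthesis (S) and G2 to mitosis (M). D-type cyclins with Cdk4 or Cdk6, and E-type cyclins with Cdk2, phosphorylate the retinoblastoma protein, which frees E2F factors to switch on replication genes. A later set of genes, with Ccnb1, Plk1 and Mki67 among them, is switched on in G2 and M and is held off in resting cells by the DREAM complex, which binds CHR elements (cell cycle genes homology region), often next to CCAAT boxes. The p53 protein restrains the cycle after damage through targets such as Cdkn1a, and Mdm2 in turn degrades p53. Adult hepatocytes rest in G0, often as polyploid cells, and re-enter the cycle after loss of tissue.

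Promoter sequence is shown for 4 genes of the dividing cell whose coefficient of variation (CV, SD over mean) between saline livers was 96.7% or more, and for 2 p53 targets, Mdm2 and Ccng1, whose CV was 7.86% and 7.09%. They were chosen after their values had been seen; Bub1, with a CV of 159%, also had a window, which held 2 CCAAT boxes and no CHR or E2F letters and is not shown. The sequences are RefSeq windows of GRCm38.p6 upstream of the start site, read 5′ to 3′ on the gene's own strand, which is the minus strand for all 6. The window ended at the start site, except that the bases nearest to it were left out for Ccnb1, Cdc20 and Ccng1 because they lie inside an annotated transcript. Capitals in the first 4 mark matches to the CHR letters (TTTGAA or TTCGAA), to CCAAT, or to the E2F letters (TTCCCGC or TTGGCGC or TTCGCGC or TTGCCGC), each on either strand. In Ccnb1 the E2F match and the CCAAT box overlap. Capitals in Mdm2 and Ccng1 mark the p53 decamer. The windows lie at chr7:135716380-135716629 (Mki67), chr11:99024190-99024439 (Top2a), chr13:100786571-100786736 (Ccnb1), chr4:118437353-118437593 (Cdc20), chr10:117710759-117711008 (Mdm2) and chr11:40755312-40755536 (Ccng1).
Mki67: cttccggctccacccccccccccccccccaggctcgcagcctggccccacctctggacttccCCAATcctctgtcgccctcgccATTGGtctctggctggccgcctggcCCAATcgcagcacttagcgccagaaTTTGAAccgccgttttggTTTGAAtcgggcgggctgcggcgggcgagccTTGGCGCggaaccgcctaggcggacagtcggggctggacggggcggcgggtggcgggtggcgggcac
Top2a: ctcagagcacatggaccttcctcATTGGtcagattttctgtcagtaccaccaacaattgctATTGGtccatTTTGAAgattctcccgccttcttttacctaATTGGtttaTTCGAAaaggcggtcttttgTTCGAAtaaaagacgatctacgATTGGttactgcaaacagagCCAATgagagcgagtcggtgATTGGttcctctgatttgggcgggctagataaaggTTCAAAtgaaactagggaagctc
Ccnb1: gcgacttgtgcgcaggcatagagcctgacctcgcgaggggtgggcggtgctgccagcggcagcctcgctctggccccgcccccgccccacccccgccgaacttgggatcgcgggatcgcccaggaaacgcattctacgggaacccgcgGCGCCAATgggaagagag
Cdc20: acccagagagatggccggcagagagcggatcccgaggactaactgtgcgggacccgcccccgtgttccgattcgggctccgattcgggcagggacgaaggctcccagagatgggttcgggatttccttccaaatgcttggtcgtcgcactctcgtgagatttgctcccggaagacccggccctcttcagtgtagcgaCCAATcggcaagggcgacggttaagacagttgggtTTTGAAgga
Mdm2: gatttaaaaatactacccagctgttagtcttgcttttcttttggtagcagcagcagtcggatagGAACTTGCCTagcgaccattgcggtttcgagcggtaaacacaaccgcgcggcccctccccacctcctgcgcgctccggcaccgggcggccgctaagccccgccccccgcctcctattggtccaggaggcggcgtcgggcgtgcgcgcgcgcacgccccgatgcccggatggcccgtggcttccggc
Ccng1: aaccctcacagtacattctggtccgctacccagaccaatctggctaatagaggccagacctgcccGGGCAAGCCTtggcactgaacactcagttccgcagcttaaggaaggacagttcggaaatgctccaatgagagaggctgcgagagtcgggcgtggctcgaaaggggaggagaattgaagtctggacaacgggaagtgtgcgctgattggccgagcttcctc

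The RefSeq table held a window for 36 of the 43 genes and none for Aurkb, Rb1, Ccnd1, Mcm4, Ccnd2, Ccne2 and Ccna2. In 32 of the 36, the window's start site lay within 100 bases of the start of the gene's most abundant transcript. For Mcm7 and E2f8, whose windows both held CHR letters, it lay 539 and 555 bases away. Among proliferation, S and M phase, mitosis and licensing genes, 8 of 17 windows of 250 bases held the CHR letters (47.1%), against 2 of 19 among the other genes and 12.4% of the 9938 tested genes with a window. CCAAT was found in 16 of these 17 windows, in 11 of the 19 others and in 36.6% of all. E2F letters were found in 6 of 17, in 6 of 19 and in 13.8% of all. The p53 decamer was found in 2 of the 17, in 5 of the 19 and in 5.94% of all. All 4 windows of Trp53, Mdm2, Ccng1 and Bax held it, while that of Cdkn1a, also a p53 target, held none. A match of letters is a description of the window and was not measured as binding in these livers.

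Mitotic cyclins and mitosis genes were read at the lowest levels in saline-infused livers, and levels differed widely within the classes of S phase and G1. In normal saline, 7 of the 43 genes had a mean under 1 CPM: Ccnb1, Ccnb2, Cdc20, Bub1, Bub1b, Aurkb and Plk1, all of them cyclins of M phase or mitosis genes. Reads of Ccnb2 may be shared with its pseudogene Ccnb2-ps, which held more estimated counts than Ccnb2 in 5 of 8 livers. The 20 genes of the proliferation, S and M phase, mitosis and licensing classes had a median of 1.87 CPM, with normal saline replicate 2 included in the means. The 23 others had a median of 13.0 CPM, close to the median of 13.5 CPM over all 12883 genes tested. These 20 and 23 were grouped after their values had been seen, and no test was made between them.

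**Figure D1:**
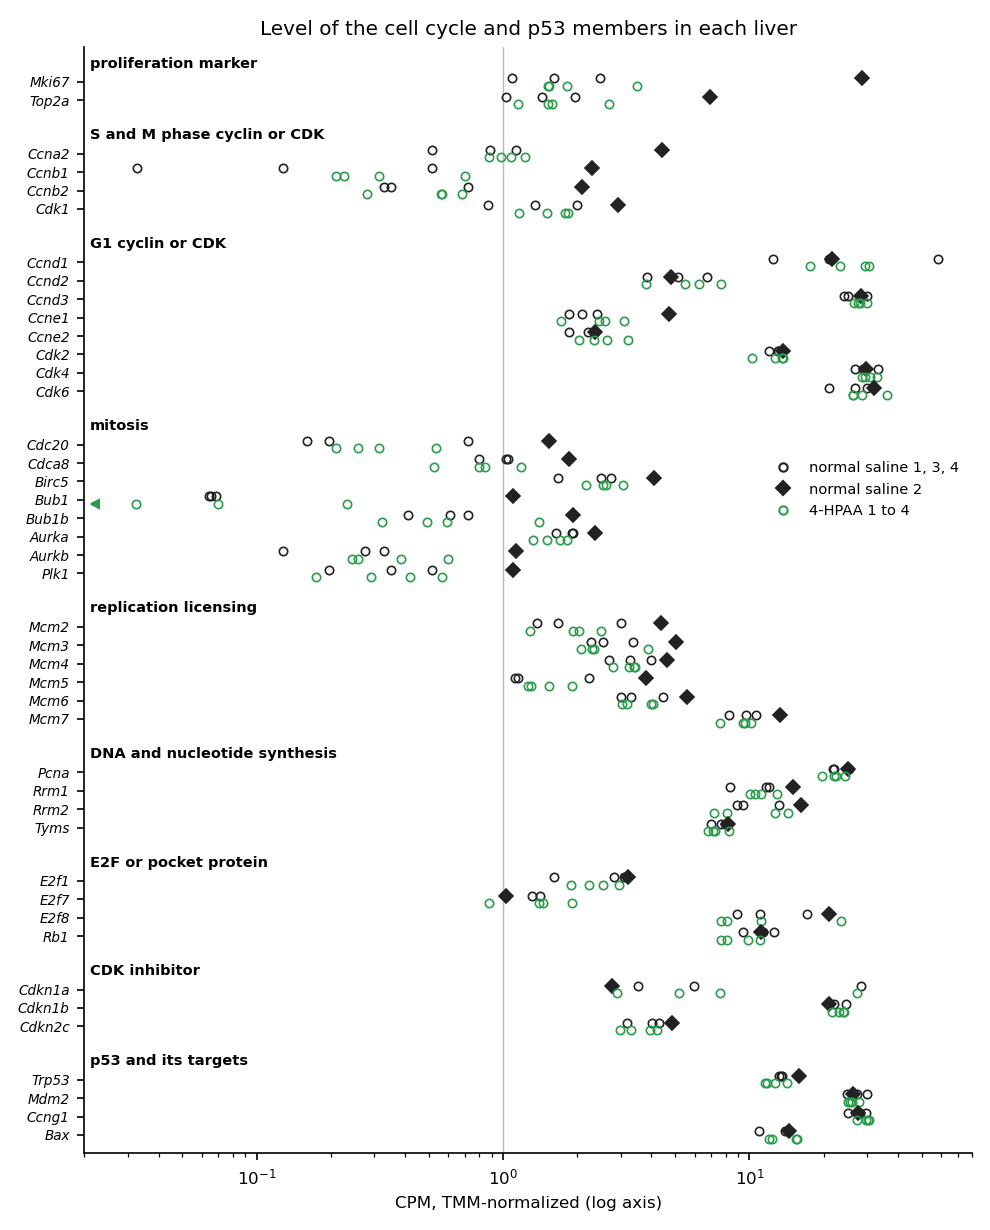
Level of each of the 43 genes in each of the 8 livers, by role class, as CPM normalized by TMM on a log axis. Open black circles are normal saline replicates 1, 3 and 4, the black diamond is normal saline replicate 2, green circles are the 4-HPAA livers, the triangle at the left edge is Bub1 at 0 counts, and the grey line marks 1 CPM. The diamond is the rightmost symbol in all 20 rows of the proliferation, S and M phase, mitosis and licensing classes.

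Per kilobase of transcript, which allows levels to be set against each other between genes, the order in normal saline began with Pcna, the sliding clamp of the replication fork, at 15.7 ± 1.27 CPM per kilobase (SD, n = 4). Cdk4, the kinase partner of D-type cyclins, followed at 15.1 ± 1.34. Bax, a p53 target that opens the mitochondrial membrane in apoptosis, stood at 15.0 ± 1.86, and Ccnd3, a D-type cyclin, at 13.3 ± 1.31. Neighbours among these 4 differed by less than the SD of Bax. Bub1, a kinase of the spindle checkpoint, was last at 0.100 ± 0.159 CPM per kilobase, below Plk1, a mitotic kinase, at 0.249 ± 0.182, and the difference between this pair was smaller than either SD. These SDs include normal saline replicate 2. Without that liver Bub1 and Plk1 had means of 0.066 and 0.355 CPM, not per kilobase, with CVs of 3.54% and 44.9%. Bub1 then rested on 2 counts in each saline liver.

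Mki67, which encodes the Ki-67 protein on the surface of mitotic chromosomes and is the usual marker of dividing cells, was read at 1.09, 28.7, 1.61 and 2.47 CPM in normal saline replicates 1 to 4. In the 4-HPAA livers it stood at 1.54, 3.50, 1.52 and 1.82 CPM. Normal saline replicate 2 was 16.7 times the mean of the other 3 saline livers (837 counts against 34, 49 and 72), and the remaining 7 livers lay between 1.09 and 3.50 CPM. Top2a, the topoisomerase that untangles replicated DNA, stood at 1.03, 6.90, 1.44 and 1.96 CPM with saline and 1.15, 2.70, 1.52 and 1.57 CPM with 4-HPAA. For both genes the second replicate was the highest liver of its own group.

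The cyclins and kinase of S and M phase were low in 7 livers and raised in the same one. Ccnb1, the cyclin that drives entry into mitosis, had 4, 67, 1 and 15 counts in normal saline replicates 1 to 4 and 6, 21, 7 and 9 counts in the 4-HPAA livers. Ccna2, the cyclin of S phase and G2, stood at 0.513, 4.43, 0.886 and 1.13 CPM with saline and 1.08, 1.23, 0.874 and 0.979 CPM with 4-HPAA. Apart from normal saline replicate 2, the highest liver stood at 1.23 CPM. Cdk1, the kinase that both cyclins bind, was the highest of its class, at 0.866, 2.92, 1.34 and 1.99 CPM with saline and 1.50, 1.83, 1.16 and 1.78 CPM with 4-HPAA. Its 4-HPAA values lay inside the saline range.

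Mitosis genes went with them. Bub1 had 2, 32, 2 and 2 counts with saline and 0, 7, 1 and 2 counts with 4-HPAA, so that 6 of 8 livers were at or under 3 counts, the number that a count of 0 still allows. Birc5, which encodes survivin, a subunit of the chromosomal passenger complex, was the highest of the class at 1.67, 4.12, 2.49 and 2.75 CPM with saline and 3.07, 2.53, 2.62 and 2.17 CPM with 4-HPAA. Its partner borealin, encoded by Cdca8, stood at 0.801, 1.85, 1.05 and 1.03 CPM and at 1.19, 0.800, 0.841 and 0.525 CPM. In Birc5 and Cdca8 the highest 4-HPAA liver was replicate 1, not replicate 2. Aurka, a kinase of the spindle poles, varied least in the class, at 1.64, 2.37, 1.90 and 1.92 CPM with saline and 1.50, 1.70, 1.33 and 1.82 CPM with 4-HPAA.

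The MCM genes encode the subunits of the replicative helicase, which is loaded on DNA in G1. Mcm7 was the highest, at 9.65, 13.3, 10.6 and 8.24 CPM with saline and 7.58, 9.57, 10.1 and 9.44 CPM with 4-HPAA. Its exons overlap those of Cops6 and Ap4m1 on the other strand, and strand was not stated to have been used in counting. Mcm5 had the largest CV of the class in saline with all 4 livers, though not with 4-HPAA, at 1.12, 3.81, 1.15 and 2.23 CPM against 1.54, 1.90, 1.26 and 1.29 CPM. Mcm3 was read at 2.28, 5.04, 3.38 and 2.54 CPM against 2.34, 3.87, 2.30 and 2.06 CPM, again with both second replicates on top. All 6 MCM genes were highest in normal saline replicate 2, by 1.40 to 2.54 times the mean of the other 3 saline livers.

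Normal saline replicate 2 was thus the highest of all 8 livers for all 20 genes of these classes: 2 of 2 proliferation markers, 4 of 4 S and M phase genes, 8 of 8 mitosis genes and 6 of 6 licensing genes. Over all genes tested it was the highest liver for 11.4%, and 4-HPAA replicate 4 for 18.7%. The median of its level over the mean of the other saline livers was 2.81 for the 20 genes and 0.996 for all genes tested. Among the other 23 genes it was highest for 7 (2 of 8 in G1, 2 of 4 in DNA synthesis, 1 of 4 E2F or pocket protein genes, 1 of 3 CDK inhibitors and 1 of 4 in the p53 class). Within the 4-HPAA group, replicate 2 was the highest liver for 14 of the 20 genes (70.0%), against 26.0% of all genes tested. The summed level of the 20 genes was 29.8, 99.2, 36.4 and 40.3 CPM with saline and 32.2, 44.2, 33.9 and 34.6 CPM with 4-HPAA, so that 7 livers lay between 29.8 and 44.2 CPM.

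**Figure D2:**
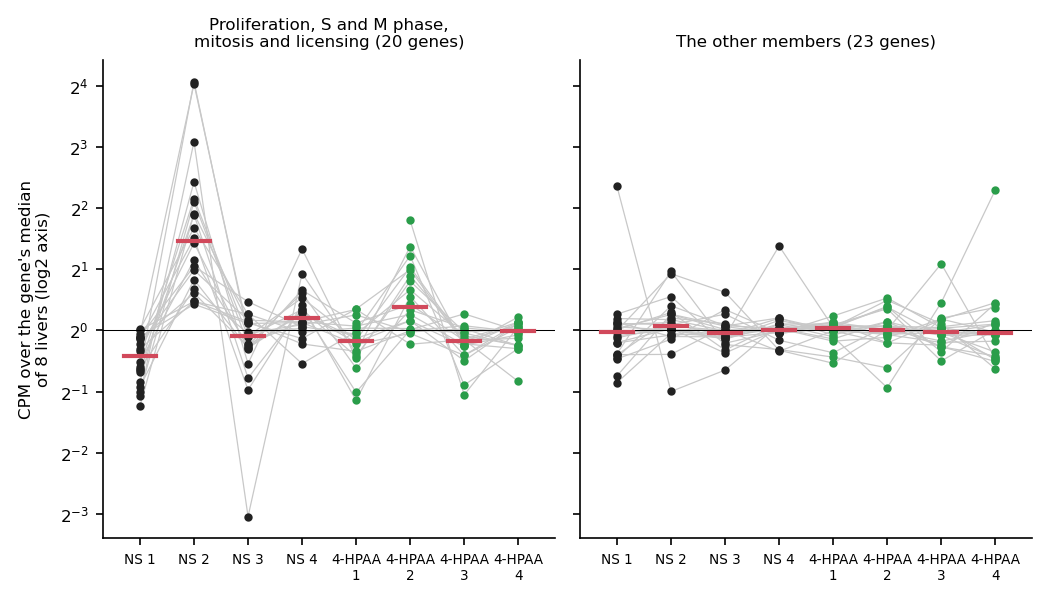
Level of each gene in each liver over the median of that gene in all 8 livers, on a log2 axis, for the 20 genes of the proliferation, S and M phase, mitosis and licensing classes (left) and the 23 others (right). Points are genes, black for normal saline (NS) and green for 4-HPAA, grey lines join a gene across livers, and red bars are medians over genes; Bub1 in 4-HPAA replicate 1, at 0 counts, has no point. On the left every point of NS 2 lies above 1 and the median is highest there, while on the right the 8 medians lie near 1.

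Markers of blood and of macrophages moved with this liver. The 8 red blood cell genes summed to 2782 CPM in normal saline replicate 2 and to between 425 and 547 CPM in the other saline livers, and 7 of the 8 were highest of all livers there. Car2, carbonic anhydrase 2, stood at 25.5 CPM there and between 3.27 and 4.12 CPM in the 7 other livers. The 7 Kupffer cell and macrophage genes summed to 284 CPM there and to between 85.9 and 187 CPM in the other saline livers; all 7 were highest of the saline group there, and all 7 were highest of the 4-HPAA group in replicate 2, at a sum of 234 CPM. Among them Marco, a scavenger receptor, was read at 27.8 CPM in normal saline replicate 2 and at no more than 9.74 CPM elsewhere. Hepatocyte, endothelial and stellate cell sums of that liver lay inside the range of the other saline livers. The sum of 5 neutrophil markers was low everywhere but also highest there, at 3.46 CPM against 1.25 to 2.40 CPM in the other saline livers. In 4-HPAA replicate 4 the red blood cell sum was 914 CPM while the 20 cell cycle genes summed to 34.6 CPM. Car2 and Marco were chosen after their values had been seen, and the part of these cells in the cell cycle values was not tested.

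**Figure D3:**
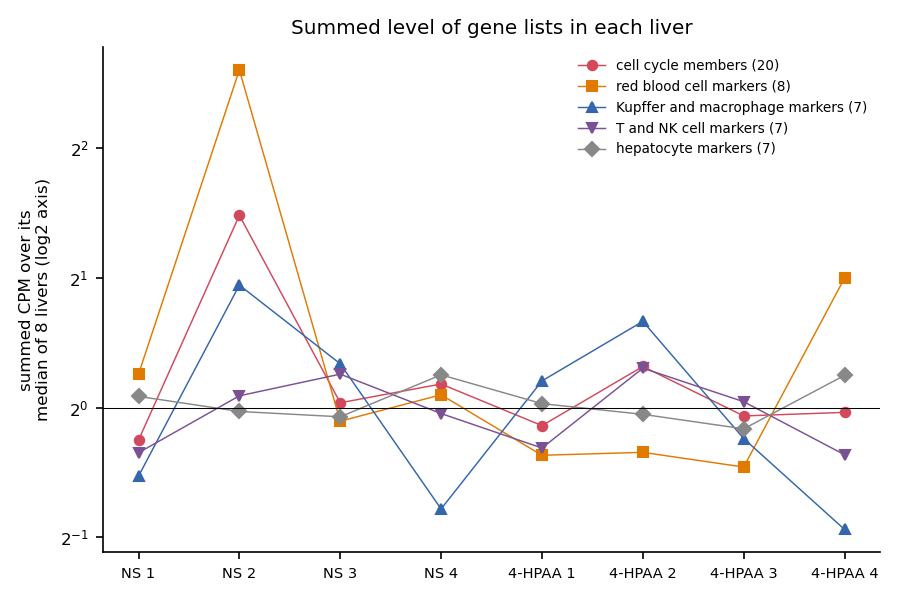
Summed CPM of 5 gene lists in each liver over the median of that sum in the 8 livers, on a log2 axis, with the number of genes of each list in the key (NS, normal saline). The cell cycle sum, the red blood cell sum and the Kupffer and macrophage sum all peak in NS 2, the red blood cell sum is raised also in 4-HPAA 4, and the hepatocyte sum stays near 1.

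G1 genes ranged from low, in the E-type cyclins, to among the highest of the list. Their median CV was 14.1% with saline and 17.8% with 4-HPAA, against 11.3% and 12.3% over all genes tested. Cdk4 stood at 28.9, 29.8, 26.8 and 33.1 CPM with saline and 29.4, 28.6, 30.9 and 33.1 CPM with 4-HPAA, a CV of 8.86% and 6.35%; its exons overlap Tspan31 on the other strand. Ccnd1, the D-type cyclin that growth factors induce, was read at 12.4, 21.7, 21.0 and 58.5 CPM with saline and 23.3, 29.5, 17.6 and 30.5 CPM with 4-HPAA. Normal saline replicate 4 was its highest liver and normal saline replicate 1 its lowest, and all 4-HPAA livers lay between them. The remaining G1 genes were Ccnd2, Ccnd3, Ccne1, Ccne2, Cdk2 and Cdk6, with saline means from 2.20 CPM (Ccne2) to 27.4 CPM (Cdk6) and CVs from 5.53% (Cdk2) to 47.8% (Ccne1). Ccne1, the cyclin that starts S phase, was the one of these 6 that stood clearly above the rest in normal saline replicate 2, at 4.73 CPM against 1.86 to 2.40 CPM in the other saline livers.

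Genes of DNA and nucleotide synthesis were not low. Pcna was read at 25.4, 25.1, 22.1 and 21.9 CPM with saline and 24.4, 22.4, 19.7 and 22.0 CPM with 4-HPAA, with no liver apart. Rrm2, the S phase subunit of ribonucleotide reductase, varied more, at 13.2, 16.2, 9.38 and 8.86 CPM and at 8.13, 7.20, 12.6 and 14.3 CPM. Its 4-HPAA order was the reverse of the proliferation markers in that replicate 2 was lowest. Rrm1 and Tyms had saline means of 11.8 and 7.69 CPM.

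E2F8 is an atypical E2F that represses E2F targets and takes part in the polyploidy of hepatocytes. E2f8 was the highest of its class, at 11.1, 21.1, 17.1 and 8.86 CPM with saline and 7.65, 11.1, 23.6 and 8.08 CPM with 4-HPAA, and the highest liver of all was 4-HPAA replicate 3. Its relative E2f7 was read at a mean of 1.19 CPM and the activator E2f1 at 2.69 CPM in saline. Rb1, the retinoblastoma gene, stood at 11.3, 11.2, 12.6 and 9.38 CPM with saline and 8.13, 11.1, 9.90 and 7.69 CPM with 4-HPAA. The groups overlapped through 4-HPAA replicates 2 and 3.

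Among the CDK inhibitors, Cdkn1a (p21, the p53 target that stops the cycle) separated the livers in another way. It was read at 28.4, 2.78, 3.54 and 5.94 CPM in normal saline replicates 1 to 4 and at 5.17, 2.90, 7.60 and 27.2 CPM in the 4-HPAA livers. Normal saline replicate 1 and 4-HPAA replicate 4 were high and the 6 others lay between 2.78 and 7.60 CPM, so that 1 liver of each group was high. The livers highest in Mki67 within their groups, both replicates 2, were the lowest in Cdkn1a within theirs. Cdkn1b (p27, the inhibitor of resting cells) was steady at 24.7, 21.1, 21.0 and 22.0 CPM with saline and 24.1, 21.7, 23.1 and 24.2 CPM with 4-HPAA. Cdkn2c (p18, an inhibitor of Cdk4 and Cdk6) had means of 4.09 and 3.60 CPM.

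The p53 class itself varied little, and its members did not all follow Cdkn1a. Trp53 was read at 13.6, 16.0, 13.4 and 13.2 CPM with saline and 14.2, 12.7, 11.6 and 11.8 CPM with 4-HPAA. Mdm2 stood at 27.3, 26.3, 25.0 and 30.0 CPM and at 26.1, 25.0, 25.6 and 27.8 CPM. Ccng1, cyclin G1, a p53 target, stood at 25.1, 27.5, 28.0 and 29.9 CPM and at 30.5, 30.4, 29.8 and 27.4 CPM. In the livers that were high in Cdkn1a, Ccng1 was the lowest of its group, while Mdm2 was the highest of its group in 4-HPAA replicate 4 but not in normal saline replicate 1. Bax was read at 13.9, 14.5, 11.0 and 14.4 CPM with saline and 15.6, 12.3, 12.0 and 15.5 CPM with 4-HPAA. The 4 genes had a median CV of 8.49% with saline and 7.25% with 4-HPAA, against 11.3% and 12.3% over all genes tested. Cdkn1a was not counted in this class. A wider list of 34 other p53 pathway genes varied more, with a median CV of 20.1% with saline and 14.0% with 4-HPAA.

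**Figure D4:**
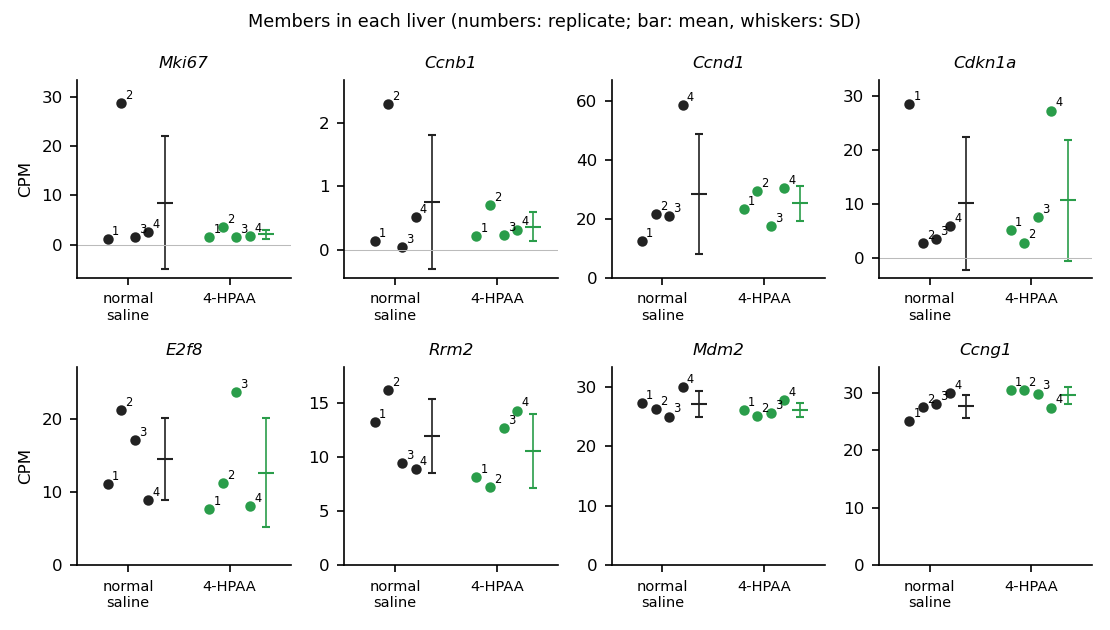
CPM of 8 genes in each liver of both groups, with the replicate number beside each point, and the mean and SD (n = 4) as a bar with whiskers. Mki67 and Ccnb1 are high in normal saline replicate 2, Ccnd1 in normal saline replicate 4, Cdkn1a in normal saline replicate 1 and 4-HPAA replicate 4, while Mdm2 and Ccng1 differ little between livers.

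The spread across livers was set beside that of other genes of like level, since low counts vary more. Ranges of level were set by the mean of all 4 saline livers and kept for the other settings. Mki67 stayed in the 3 to 40 CPM range, at 8.47 CPM in saline and 1.72 CPM without normal saline replicate 2. The median CV of the 43 genes was 28.5% with saline and 19.6% with 4-HPAA. For the 20 genes of the dividing cell it was 66.8% with saline, 34.3% without normal saline replicate 2, and 31.8% with 4-HPAA. Between 0.3 and 3 CPM, 13 of the genes tested had a median CV of 47.8% with saline, against 23.6% over the 2738 tested genes of that range. Without normal saline replicate 2 these became 27.0% and 22.2%, and with 4-HPAA they were 19.7% and 23.0%. Between 3 and 40 CPM, 24 of the genes had a median CV of 17.3%, against 10.1% over 7153 genes, 14.8% against 10.1% without that liver, and 13.5% against 11.1% with 4-HPAA.

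The study infused 4-HPAA to ask what a microbial metabolite does to liver transcripts, and none of these genes passed the test of that comparison. Of the 37 genes tested, 0 passed an adjusted p of 0.05 in the quasi-likelihood test of edgeR, adjusted by Benjamini and Hochberg, as did 0% of all 12883 genes; over all genes DESeq2 called 2 and limma-voom 0, none of them from this list. At an unadjusted p under 0.05 the numbers were 0 of 37 genes and 1.75% of all. The 2 groups overlapped for all 37 genes, while they did not overlap for 1.2% of all genes tested. With 4-HPAA 10 of the 37 genes were higher and 27 lower, with a median log2 fold change of -0.17, against 0.00 for all genes tested. Without normal saline replicate 2, 19 were higher and 18 lower, with a median of 0.01.

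The direction was read with and without that saline liver, in classes that were grouped after their values had been seen. Where it was the highest saline liver, leaving it out lowers the saline mean. An upward shift in those classes therefore follows from the grouping and is only a description. All 14 tested genes of the proliferation, S and M phase, mitosis and licensing classes were lower with 4-HPAA, by a median log2 fold change of -0.35, and without normal saline replicate 2 they split into 6 higher and 8 lower (median -0.01). The 23 other genes were 10 higher and 13 lower with all livers, among the lower all 4 genes of DNA and nucleotide synthesis and 3 of 4 E2F or pocket protein genes, and 13 higher and 10 lower without it. The log2 fold change of Mki67 was -2.01 (SE 0.97, unadjusted p = 0.0655 and adjusted p = 1.00 in edgeR) with all livers and 0.28 (SE 0.37) without that one. For Top2a it was -0.70 (SE 0.56) and 0.24 (SE 0.33), and for Ccna2 -0.73 (SE 0.58) and 0.31 (SE 0.28). All 3 thus changed sign when 1 liver was left out.

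The other genes with the smallest p were Rb1, at a log2 fold change of -0.27 (SE 0.14), Aurka at -0.30 (SE 0.18), Trp53 at -0.16 (SE 0.10) and Cdca8 at -0.49 (SE 0.32). Their unadjusted p in edgeR lay between 0.0761 and 0.151. Leaving out any 1 library kept the sign of these 4 genes. Cdkn1a had a log2 fold change of 0.07 (SE 0.83), which ranged from -0.97 without 4-HPAA replicate 4 to 1.39 without normal saline replicate 1, and was 0.36 (SE 0.38) without both. Ccnd1 stood at -0.17 (SE 0.41) and at 0.46 without normal saline replicate 4. The closest estimates were those of Mdm2 at -0.05 (SE 0.08), Ccng1 at 0.10 (SE 0.08), Cdk4 at 0.04 (SE 0.08) and Cdkn1b at 0.07 (SE 0.08).

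**Figure D5:**
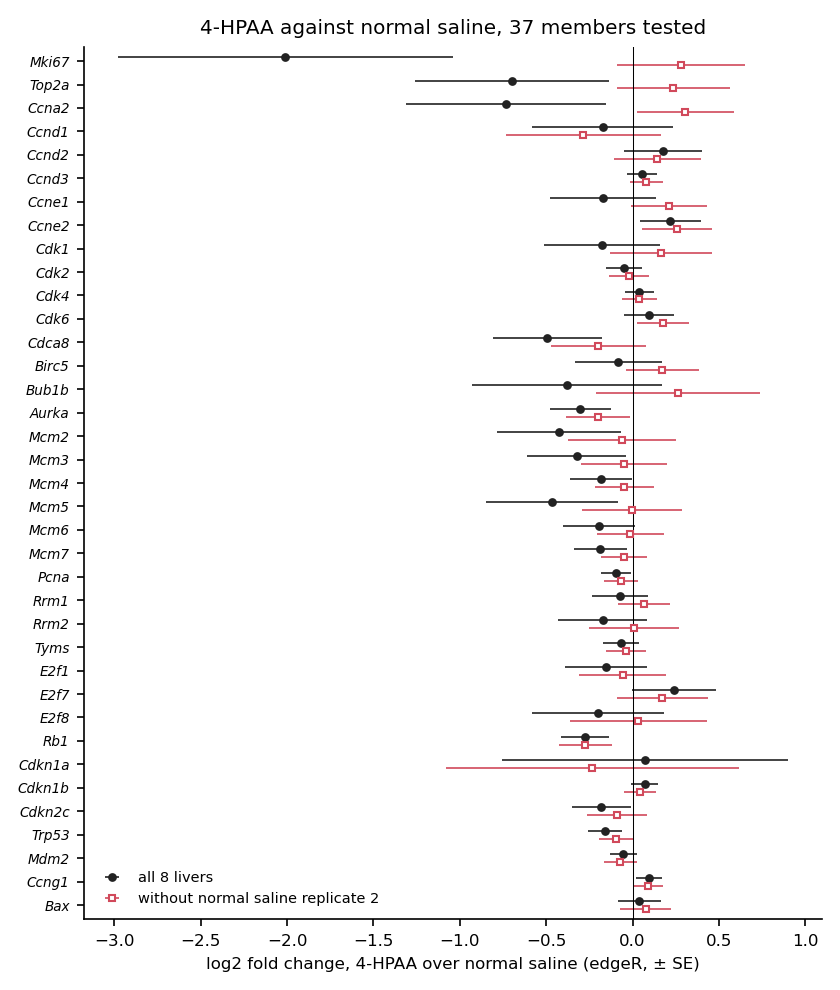
Log2 fold change of 4-HPAA over normal saline for the 37 genes tested, with its SE, from edgeR on all 8 livers (black circles) and without normal saline replicate 2 (open red squares). Mki67, Top2a and Ccna2 pass from below 0 to above 0 when that liver is left out, and most G1 and p53 genes barely move.

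A further 127 genes of the same pathways were read beside them, of which 107 were tested and 0 passed the adjusted threshold. At an unadjusted p under 0.05 in edgeR there were 2 of the 107, near the share of 1.75% over all genes tested. Of 32 tested replication genes 10 lay higher and 22 lower with 4-HPAA, and of 20 tested mitosis genes 6 were higher and 14 lower; without normal saline replicate 2 these became 18 and 14 for replication and 15 and 5 for mitosis. G1 and S phase control genes split 12 to 12, or 16 to 8 without that liver, and p53 pathway genes 16 to 15 with and without it. Normal saline replicate 2 was the highest liver for 23 of 30 mitosis genes and for 13 of 34 replication genes, but for 5 of 34 p53 pathway genes. Among mitosis genes with the smallest p, Racgap1, which positions the cleavage furrow, stood at 0.321, 2.30, 0.328 and 0.653 CPM with saline and between 0.388 and 0.534 CPM with 4-HPAA. Ube2c, an enzyme that marks cyclins for destruction, stood at 0.385, 2.81, 0.459 and 0.618 CPM with saline and between 0.349 and 0.667 CPM with 4-HPAA. Both showed the same single high liver.

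The other genes named by the smallest p of each list did not pass the adjusted threshold. Gins4, a subunit of the helicase complex, had a log2 fold change of 0.22 (SE 0.09) and Prim1, the primase, one of -0.27 (SE 0.17). Wee1 and Pkmyt1, kinases that restrain Cdk1, stood at 0.17 (SE 0.08) and -0.38 (SE 0.23). The p53 targets Ei24 and Ddb2 stood at 0.51 (SE 0.20) and -0.22 (SE 0.10), and each of these 6 had an adjusted p of 1.00 in edgeR's quasi-likelihood test. In Ei24 the 4-HPAA livers stood at 41.6, 75.2, 87.3 and 79.6 CPM against 54.1, 56.5, 46.0 and 42.5 CPM with saline, so that 3 of 4 lay above all saline livers and 1 below them. Ddb2, which recognises damaged DNA, was read at 5.67, 5.59, 6.43 and 6.35 CPM with saline and 5.41, 5.27, 5.11 and 4.90 CPM with 4-HPAA. It was the 1 gene of 31 tested in the p53 pathway list whose groups did not overlap, against 1.2% of all genes tested.

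Some genes were chosen after their values had been seen. E2f2, an activator E2F, was read at 7.20 CPM in normal saline replicate 2 and between 0.314 and 0.618 CPM in the 7 other livers. The mitotic motor gene Cenpe stood at 2.74 CPM there and at no more than 0.534 CPM elsewhere, and the mitotic phosphatase gene Cdc25b at 5.04 CPM and at no more than 0.866 CPM. These 3 showed the pattern of the proliferation markers. Btg2, an antiproliferative p53 target, stood at 91.3, 17.9, 15.2 and 54.2 CPM with saline and 40.6, 16.4, 13.8 and 39.4 CPM with 4-HPAA. It was highest in the saline liver that was highest in Cdkn1a, but 4-HPAA replicates 1 and 4 were alike in Btg2 and apart in Cdkn1a. The p53 targets Gadd45a, at 6.03 CPM against 1.92 to 3.54 CPM, and Sesn1, at 18.0 CPM against 9.87 to 12.2 CPM, were also highest of the saline livers in normal saline replicate 1, but in 4-HPAA replicate 4 they stood at 3.08 and 12.1 CPM, below 4-HPAA replicate 1 at 4.99 and 14.6 CPM.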

How the data were processed

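RNA from 8 whole livers, 4 after saline and 4 after 4-HPAA infusion, was sequenced as paired-end reads from a directional library kit. Reads were checked with FastQC 0.11.9 and pseudo-aligned with kallisto under standard parameters to transcripts of GRCm38.p6, and the authors deposited the estimated counts of kallisto per transcript and mouse, neither normalized nor pooled. Standard parameters take no account of strand, so reads of overlapping genes on opposite strands may be shared. Kallisto and DESeq2 and edgeR are named in the submitters' processing notes.

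The deposited counts of 119414 transcripts were summed per gene with GENCODE M21 (116728 matched, 2686 not, holding 0.703% to 1.06% of a library) and rounded. Columns without a sample numbered 0. The main test, by edgeR 4.0.16 in R 4.3.3, took the genes that reached 10 counts in all 8 libraries (quasi-likelihood F, TMM factors, Benjamini-Hochberg, threshold 0.05); SE is the absolute log2 fold change over the square root of F. Depth (29559978 to 30673398 counts per library) limits precision in the lowest genes, and the variation among mice does so in the rest. Each mouse is 1 replicate.

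The genes and lists were chosen with earlier results of these data known. Values in every liver are given for Mki67, Top2a, Ccnd1, Cdkn1a, Mdm2, Ccng1, Trp53 and Bax, for the gene with the highest mean and the gene with the largest CV of each class, for the 5 genes with the smallest p and for genes with a liver far from the rest of its group; the 2 genes with the smallest p of each further list are named. Promoter windows are RefSeq sequences of GRCm38.p6. Of each gene's estimated counts at least 65.2% fell on coding transcripts. The alternatives comprised limma-voom (limma 3.58.1) and DESeq2 1.42.0, RLE or total-count scaling, other filters, single transcripts, a block for the replicate number, each library left out, and, chosen after seeing the data, 2 pairs of libraries left out together. The steps were tested on simulated data.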

Additional observations from a re-analysis of the deposited data

Results flagged for a closer look

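In 86 groups of 4 livers (43 genes in 2 groups), 9 held a liver whose distance to the nearest other liver took up more of the whole range of its group than Dixon's 95% critical value, where chance gives about 1 in 20, or 4.3. Of the 9, 5 were normal saline replicate 2: highest in Mki67 (0.950 of the range), Bub1 (0.996), Top2a (0.841), Ccna2 (0.841) and Trp53 (0.854). In 4-HPAA replicate 2, Mki67 (0.849) and Mcm3 (0.847) were far above the rest of the group. Cdkn1a was far above the rest in normal saline replicate 1 (0.876), and Bax was far below the rest in normal saline replicate 3 (0.849). The 4.3 assumes normally distributed values, and the share flagged over all genes tested was not computed. The 9 are therefore only a description. The 43 genes are not independent of each other, and no cause was tested.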

How the results depend on the processing

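No gene of the list passed the threshold under any alternative run, and the 127 further genes gave 0 calls under those run on them. Over all genes tested, DESeq2 called 2 genes, leaving out both replicates 2 together gave 1, and leaving out 1 library gave 0 to 1 (1 without 4-HPAA replicate 1). The number of genes with a mean under 1 CPM in normal saline, 7, became 2 at 0.5 CPM and 12 at 2 CPM, and lay between 5 and 9 when a saline library was left out. The median CV in saline, 28.5%, lay between 19.8% and 28.8% when one was left out. Of 374 single log2 fold changes recomputed for 22 genes, 349 kept their direction and 25 reversed. Ccnd1 reversed in limma-voom (0.04) and with the replicate block (0.025). Without both replicates 2, Cdk1 (0.087), Birc5 (0.19), Rrm2 (0.16), E2f8 (0.094) and Ccna2 (0.22) reversed, and Cdk4 (-0.013) did so without normal saline replicate 1 and 4-HPAA replicate 4. With 1 library left out, 11 genes reversed, with ranges of -2.38 to 0.28 (Mki67), -0.99 to 0.24 (Top2a), -1.04 to 0.31 (Ccna2), -0.41 to 0.17 (Cdk1), -0.26 to 0.17 (Birc5), -0.35 to 0.010 (Rrm2), -0.70 to 0.034 (E2f8), -0.42 to 0.46 (Ccnd1), -0.97 to 1.39 (Cdkn1a), -0.046 to 0.10 (Bax) and -0.0069 to 0.097 (Cdk4). The cause was not tested. Deviations of same-numbered livers correlated at 0.040, 0.168, 0.268 and 0.480 across genes, and normal saline replicate 3 correlated best with 4-HPAA replicate 2 (0.466), so the numbers were not taken to pair the mice. With the replicate block, 0 genes were called and 336 had an unadjusted p under 0.05. Counts limit the 6 genes that could not be tested.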

Other observations

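Of the pseudogenes of these genes, Ccnb2-ps was the one with more than 1 count in a liver. It held 18 to 37 estimated counts per liver, with 37 in normal saline replicate 1 and 25 in normal saline replicate 2, whereas Ccnb2 itself was highest in normal saline replicate 2. Pseudogenes of Ccnb1, Ccnd3, Trp53 and Tyms were at 0 counts in all 8 livers, and those of Pcna at no more than 1.

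The red blood cell and cell cycle sums both peaked in normal saline replicate 2, and the order of the other livers differed between genes. Hbb-bs, a beta globin gene chosen after its values had been seen, stood at 1177 CPM in normal saline replicate 2, 336 CPM in 4-HPAA replicate 4 and 174 CPM in normal saline replicate 1, and Mki67 at 28.7, 1.82 and 1.09 CPM in those livers. Car2, of the same marker list, stood at 25.5, 3.57 and 4.01 CPM there. Among Kupffer cell genes, Clec4f stood at 82.5 CPM in normal saline replicate 2, 69.7 CPM in 4-HPAA replicate 2 and 60.8 CPM in 4-HPAA replicate 1, where Mki67 stood at 28.7, 3.50 and 1.54 CPM. Clec4f and the livers named for it, its highest, were chosen after their values had been seen. The order was not shared by all livers. In normal saline replicate 4, Mki67 stood at 2.47 CPM, above 4-HPAA replicate 1, while Clec4f stood at 31.6 CPM, below it. The part of these cells in the cell cycle values was not tested.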
